A study of Homo sapiens with 24 samples.

Results

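AMD1 and 9 other genes of polyamine metabolism were followed in 3 estrogen receptor-positive human breast cancer cell lines kept at low or high glucose. The 10 genes were AMD1, ODC1, SRM, SMS, SAT1, PAOX, SMOX, OAZ1, OAZ2 and AZIN1, and all 10 were found by symbol among the 18889 genes of the table. The set was chosen by symbol around AMD1, and AMD1 itself was selected on its measured LG and HG values because its response to glucose was known to differ between the lines, so its values are given as a description and without a test. The other 9 are the enzymes and regulators around it.

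Each line (HCC1500, MDA-MB-175 or ZR-75-30) was grown for 48 h in 5 mM glucose (LG) or in 25 mM glucose (HG), with 4 replicates in each of the 6 groups and 24 samples in all. The lines are established and unmodified, and each is 1 line. Their RNA was sequenced in bulk, so a change in some of the cells and a smaller change in all of them cannot be told apart. By the study's methods, all cultures were conditioned in low glucose before the HG cultures were switched, and both media lacked serum. Mannitol was added to LG medium in some experiments to match osmolarity. The study reported no difference from it in the phenotypes examined, shown for proliferation and migration but not for RNA. The labels do not say whether mannitol was added here, so glucose and osmolarity cannot be told apart. The labels do not say whether the replicates were separate cultures, and p-values then measure only the spread between these samples, which may be technical.

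Polyamines are small, positively charged molecules that bind nucleic acids and that dividing cells need. ODC1, ornithine decarboxylase, makes putrescine. AMD1 makes decarboxylated S-adenosylmethionine, the donor of the aminopropyl group that spermidine synthase (SRM) and spermine synthase (SMS) add to putrescine and to spermidine. SAT1 acetylates spermidine and spermine, which marks them for export or for oxidation by PAOX, while SMOX oxidises spermine directly. The antizymes OAZ1 and OAZ2 bind ornithine decarboxylase and send it to the proteasome, and AZIN1, the antizyme inhibitor, holds antizyme away from it. Much of this control acts on translation and protein turnover, which RNA levels do not show.

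Values are normalised values, which are reads of a gene divided by a factor particular to each sample. Recovered reads came to between 9140024 and 17998819 per sample. In HCC1500 the LG and HG samples did not overlap in depth, with 13190982 to 17998819 reads at LG and 9423472 to 12140912 at HG. One library stood apart: HCC1500 HG replicate 3 had a mean correlation of 0.944 with its own group over genes, against 0.99 to 0.995 for the other 23 libraries. Its median gene was at 1.2 times the mean of the other 3 HG libraries, but OAZ1 was at 2.72, SRM at 2.56, SMOX at 2.43, SAT1 at 1.91, PAOX at 1.83, SMS at 1.57, OAZ2 at 1.54 and ODC1 at 1.39 times that mean, while AMD1 was at 0.96 and AZIN1 at 0.78 times. OAZ1, SRM and SAT1 have the shortest transcripts of the 10, at 1.148, 1.26 and 1.049 kb. AMD1 and AZIN1 have the longest, at 3.423 and 4.196 kb. SMOX, at 2.43 times, has a longer transcript (2.164 kb) than SMS (1.703 kb), at 1.57 times. A link with transcript length was not tested. Because this library stood apart, HCC1500 responses below are given with and without it. All 9 luminal epithelial markers were detected in every sample, among them ESR1 at 255 to 3962 and CDH1 at 49.0 to 8263. The 7 fibroblast markers summed to 78.6 to 295. COL1A1 was at 67.1 to 256, LUM reached 67.8, COL3A1 22.9 and COL1A2 21.3. DCN and PDGFRB were at most 2.03 and THY1 was at 0. Among the immune markers found, CD68 reached 43.9, CD14 26.7 and LYZ 12.7. The endothelial markers VWF and CDH5 reached 55.6 and 33.3.

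AMD1 lies at chr6:111195973-111220082 (GRCh37, plus strand) and ODC1 at chr2:10580094-10588453 on the minus strand. SRM is at chr1:11114641-11120077 and SMS at chrX:21958827-22012955, with SAT1 on the same chromosome at chrX:23801290-23804327. PAOX (chr10:135192765-135205198) shares 1373 exonic bases with a protein-coding gene model on the same strand that has no symbol, so its counts are uncertain. SMOX is at chr20:4101627-4168394, OAZ1 at chr19:2269508-2273489 and OAZ2 at chr15:64979772-64995480. OAZ1 shares 236 exonic bases with JSRP1 on the opposite strand and OAZ2 shares 554 with a long noncoding RNA on the opposite strand, while OAZ1, AZIN1 and SAT1 share 220, 159 and 90 with gene models on their own strand. The counting of strand for these samples is not given in the sources used here. AMD1, SRM, SMS and OAZ1 also have named pseudogenes (4, 3, 1 and 1 in the annotation, none of them in the table), which could take some of their reads.

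ODC1 is a textbook target of MYC, which binds the E-box CACGTG. Of the 10 genes, 7 had a RefSeq promoter window (GRCh38.p14, 250 bases before to 50 after a start site), and 2 of these 7, ODC1 and SRM, held the motif, which reads the same on both strands. It stood in 7.26% of all 35116 windows, or in at least 1 window of 8.77% of 27305 genes. None of the 3 windows of AMD1 held it. The matches are shown because ODC1, but not SRM, was called higher at HG in HCC1500 below. The E-box is in capitals and the strand of the gene runs from 5′ to 3′. The first ODC1 match begins 29 bases before its second listed start site (chr2:10448024-10448053, minus strand) and the second begins just after it (chr2:10447990-10448019). The SRM match begins 199 bases before the start (chr1:11060200-11060229, minus strand). A match is a description of these letters and not a bound site.
ODC1, upstream: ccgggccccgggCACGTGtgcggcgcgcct
ODC1, downstream: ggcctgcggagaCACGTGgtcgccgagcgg
SRM, upstream: ccggccgggcccCACGTGgcccctggagcg

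AMD1 means at LG lay between 955 and 1091 in the 3 lines, and its HG level stood apart in HCC1500 alone. The LG order depends on the scaling: HCC1500 minus ZR-75-30 was 0.09 on the log2 scale, but -0.10 by TMM and 0.45 by CPM. In HCC1500 the 4 LG samples were at 995, 1020, 1047 and 1013 and the 4 HG samples at 2595, 2681, 2519 and 2613. No HG value came within reach of an LG value, and replicate 3 was the lowest of the HG samples. The mean went from 1019 ± 21.7 to 2602 ± 66.5 (SD, n = 4), which is 2.55-fold, or 1.35 ± 0.066 (SE) on the log2(value + 1) scale used for all log2 changes. Without replicate 3 the HG mean was 2629 ± 45.3 (n = 3) and the log2 change 1.37 ± 0.028.

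In MDA-MB-175 the AMD1 samples were at 1039, 1076, 1089 and 1160 at LG and at 984, 980, 947 and 950 at HG. The HG values lay below every LG value by a small margin, with a log2 change of -0.18 ± 0.043. ZR-75-30 had the opposite order, with 937, 970, 918 and 996 at LG and 1098, 1019, 1072 and 1115 at HG and a log2 change of 0.17 ± 0.041. The 3 log2 changes thus spanned 1.53. The direction in each line was the same under every scaling and test tried, and the HCC1500 change lay between 1.28 and 1.41.

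Ordered by AMD1 level, the groups ran from HCC1500 HG (2602) to MDA-MB-175 LG (1091), ZR-75-30 HG (1076), HCC1500 LG (1019), MDA-MB-175 HG (965) and ZR-75-30 LG (955). Only the step below HCC1500 HG was large. MDA-MB-175 LG, ZR-75-30 HG and HCC1500 LG overlapped with their neighbours, as did MDA-MB-175 HG with ZR-75-30 LG. AMD1 values were also tight: the SD was 2.01% to 4.63% of the mean in the 6 groups.

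**Figure D1:**
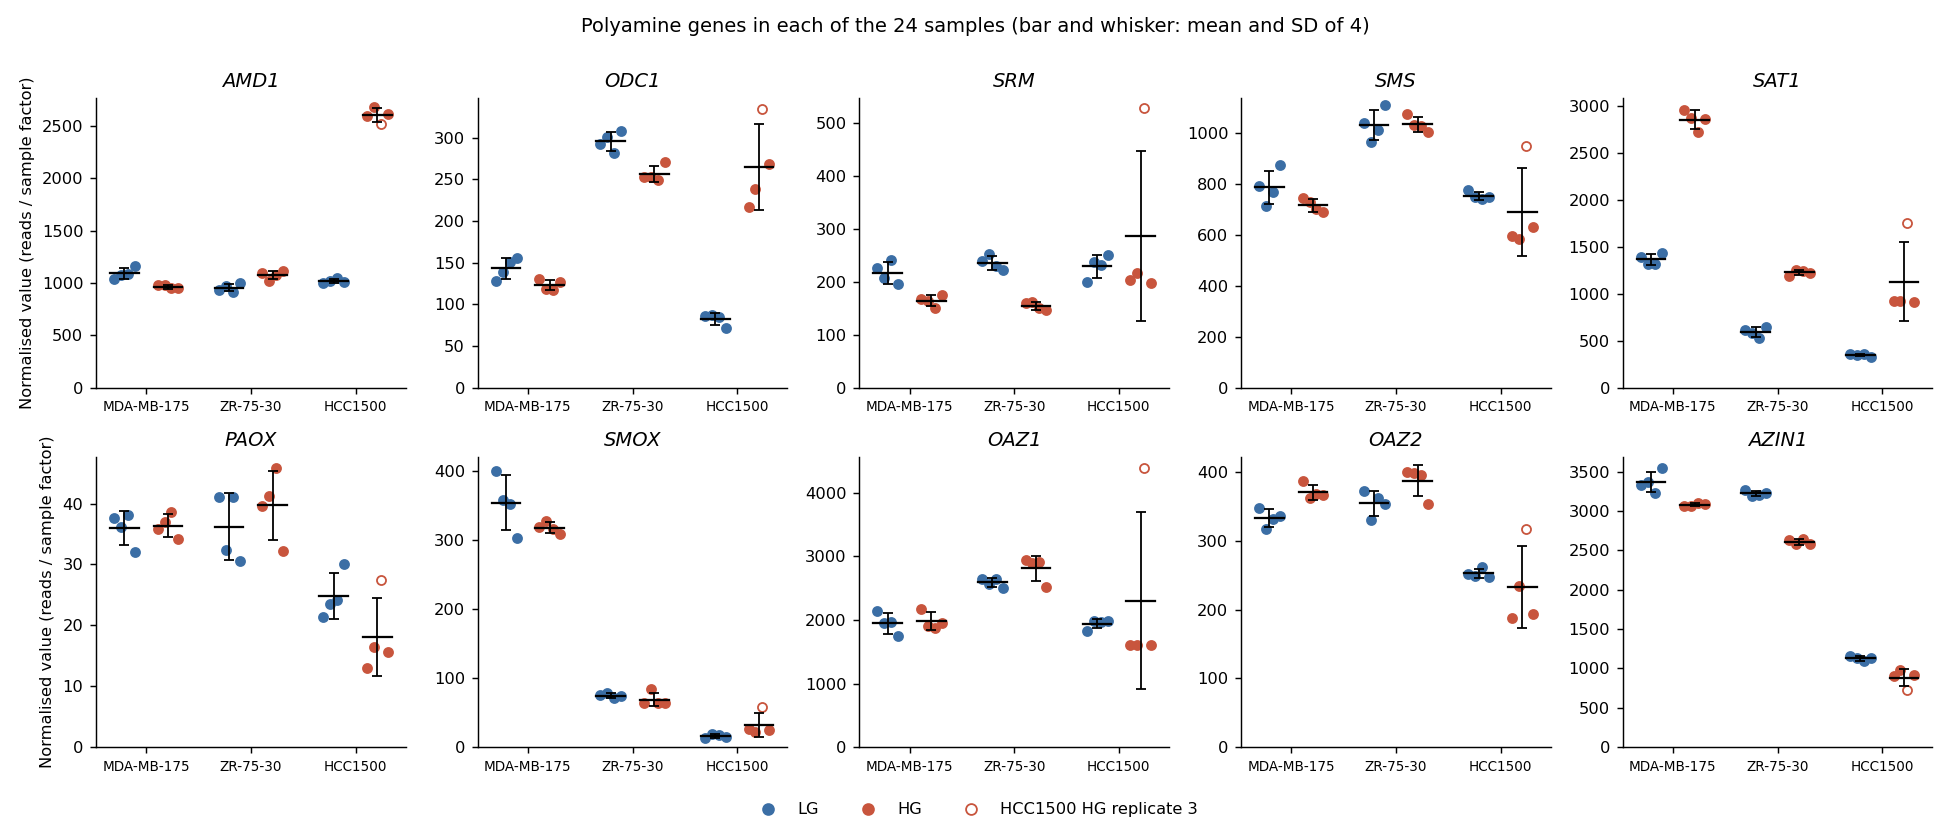
Normalised values (reads divided by a sample factor, y axes from 0) of the 10 polyamine genes in LG and HG samples of 3 lines, with 4 points, their mean and SD per group and HCC1500 HG replicate 3 as an open circle. AMD1 and ODC1 were higher at HG in HCC1500 (2602 against 1019 and 264 against 82.2), SAT1 was higher at HG in all 3 lines, and the open circle was the highest HCC1500 HG point for 8 of the 10 genes.

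ODC1, the first enzyme of the pathway, rose with glucose in HCC1500 and fell slightly in ZR-75-30. In HCC1500 its samples were at 85.9, 87.3, 84.4 and 71.1 at LG and at 217, 239, 335 and 268 at HG. Every HG sample was more than 2 times the highest LG sample. The log2 change was 1.66 ± 0.147 (limma, adjusted p = 1.7e-04), or 1.54 ± 0.086 without replicate 3 (adjusted p = 3.7e-11). The recovered reads behind these values numbered 165 to 275 at LG and 367 to 580 at HG.

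ODC1 in ZR-75-30 was at 292, 301, 282 and 308 at LG and 253, 253, 249 and 271 at HG. The groups did not overlap, and ODC1 fell by 0.20 ± 0.054 on the log2 scale (limma, adjusted p = 0.00442). In MDA-MB-175 the values were 128, 139, 151 and 156 at LG and 130, 119, 117 and 127 at HG, which overlapped, with a log2 change of -0.21 ± 0.079 that did not pass the test (adjusted p = 0.0611). ODC1 and AMD1 were thus both higher at HG in HCC1500, while in ZR-75-30 their differences had opposite signs.

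The line with the lowest ODC1 level at LG was the one in which it rose. ODC1 at LG averaged 82.2 ± 7.51 in HCC1500, 144 ± 12.7 in MDA-MB-175 and 296 ± 11.4 in ZR-75-30 (SD, n = 4), and the 3 pairwise log2 differences of 1.04, -0.80 and -1.84 all passed the test (limma on 24 samples, adjusted p at most 2.3e-07). After glucose, HCC1500 reached 264 ± 51.4, or 241 ± 25.7 without replicate 3, and overlapped the HG level of ZR-75-30 (257 ± 9.9).

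In HCC1500, where AMD1 and ODC1 were higher at HG, the aminopropyl transferases SRM and SMS were not called higher. SRM fell in MDA-MB-175 from 225, 206, 241 and 195 to 168, 164, 151 and 174, a log2 change of -0.40 ± 0.075 (limma, adjusted p = 8.8e-04). It also fell in ZR-75-30, from 239, 252, 230 and 221 to 159, 162, 151 and 146, with a log2 change of -0.60 ± 0.065 (adjusted p = 4.1e-07). LG and HG samples did not overlap in either line. In HCC1500 the SRM values were 199, 237, 231 and 250 at LG and 204, 217, 527 and 197 at HG. Replicate 3 alone lay above the LG range, and the log2 change of 0.19 ± 0.297 (adjusted p = 0.71) became -0.15 ± 0.069 (adjusted p = 0.0668) without it.

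SMS was called in none of the 3 lines, with log2 changes of -0.13 ± 0.056 for MDA-MB-175, 0.00 ± 0.044 for ZR-75-30 and -0.16 ± 0.151 for HCC1500 (limma, adjusted p = 0.098, 0.949 and 0.519). The HCC1500 HG samples were at 596, 585, 948 and 629, against 775, 748, 739 and 748 at LG. Replicate 3 was above and the other 3 were below all LG samples. Without replicate 3, SMS fell by 0.32 ± 0.036 (adjusted p = 4.7e-07).

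SAT1, which starts the breakdown of spermidine and spermine, rose in all 3 lines and was the largest called change of the 9 genes in MDA-MB-175 and in ZR-75-30. In MDA-MB-175 it went from 1395, 1322, 1316 and 1433 to 2959, 2873, 2721 and 2868, a log2 change of 1.06 ± 0.042 (limma, adjusted p = 3.6e-11). ZR-75-30 went from 613, 579, 531 and 650 to 1189, 1253, 1245 and 1225, with a log2 change of 1.05 ± 0.051 (adjusted p = 1.4e-11). LG and HG did not overlap in either line, and the fold was nearly the same although the starting levels differed.

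SAT1 in HCC1500 was at 355, 344, 355 and 327 at LG and at 927, 919, 1756 and 913 at HG. The other 3 HG samples lay close together, with a mean of 920 ± 7.21, and replicate 3 stood far above them. The log2 change was 1.65 ± 0.205 (limma, adjusted p = 9.3e-04) with it and 1.41 ± 0.039 (adjusted p = 3.0e-15) without it. In each line the SAT1 call held under all 20 alternatives.

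PAOX and SMOX are the oxidases of the set. PAOX was not called in any line, at 32.0 to 38.1 in LG and 34.2 to 38.6 in HG samples of MDA-MB-175 and at 30.5 to 41.0 and 32.2 to 45.9 in ZR-75-30. In HCC1500 it was at 21.3, 23.5, 24.2 and 30.1 at LG and 13.0, 16.4, 27.5 and 15.7 at HG. These overlapped through replicate 3, and the log2 change of -0.47 ± 0.236 (limma, adjusted p = 0.2) became -0.68 ± 0.179 (adjusted p = 0.00319) without it. Only 22 to 74 reads per sample stood behind these PAOX values.

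SMOX differed between the lines far more than it did with glucose. At LG it averaged 16.3 ± 2.76 in HCC1500, 74.6 ± 3.25 in ZR-75-30 and 353 ± 39.9 in MDA-MB-175 (SD, n = 4), so MDA-MB-175 was 4.36 ± 0.199 (SE) log2 units above HCC1500 and 2.22 ± 0.199 above ZR-75-30 (limma, adjusted p = 4.5e-15 and 1.2e-09). With glucose it was not called in any line. The HCC1500 samples were at 13.3, 19.7, 17.3 and 15.1 at LG and 26.5, 21.4, 58.7 and 24.5 at HG. They did not overlap, and the log2 change of 0.86 ± 0.307 (adjusted p = 0.0827) passed the test without replicate 3, at a smaller 0.54 ± 0.183 (adjusted p = 0.0163).

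The regulators of ornithine decarboxylase moved little. OAZ1 passed the test in ZR-75-30, where it rose by 0.12 ± 0.045 on the log2 scale (limma, adjusted p = 0.0373), with overlapping groups (2508 to 2649 at LG and 2525 to 2944 at HG), a call lost in 7 of 20 alternatives. In MDA-MB-175 its log2 change was 0.02 ± 0.06 (adjusted p = 0.843). HCC1500 was at 1832, 1991, 1964 and 1992 at LG and 1611, 1612, 4386 and 1611 at HG. Replicate 3 turned the direction: the log2 change was 0.09 ± 0.307 (adjusted p = 0.872) with it and -0.27 ± 0.031 (adjusted p = 5.9e-07) without it.

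OAZ2 rose in MDA-MB-175 from 348, 317, 332 and 337 to 387, 362, 368 and 367, a log2 change of 0.15 ± 0.05 without overlap (limma, adjusted p = 0.0329), but 8 of 20 alternatives lost the call. The same size in ZR-75-30, 0.13 ± 0.055, did not pass (adjusted p = 0.0728). In HCC1500 the log2 change was -0.14 ± 0.16 (adjusted p = 0.58), and without replicate 3 OAZ2 fell by 0.30 ± 0.066 (adjusted p = 6.9e-04).

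AZIN1 (chr8:103838339-103906092, GRCh37, minus strand) was the one member besides SAT1 that passed the test in all 3 lines, and it fell in each. In ZR-75-30 it went from 3265, 3189, 3205 and 3232 to 2626, 2574, 2645 and 2583, a log2 change of -0.31 ± 0.032 (limma, adjusted p = 2.9e-07). In MDA-MB-175 the samples were at 3231 to 3541 at LG and 3063 to 3099 at HG, with a log2 change of -0.13 ± 0.038 (adjusted p = 0.0195). HCC1500 was at 1164, 1136, 1089 and 1128 at LG and 909, 986, 727 and 914 at HG, with a log2 change of -0.36 ± 0.102 (adjusted p = 0.0362), or -0.27 ± 0.035 without replicate 3 (adjusted p = 2.8e-06). The groups did not overlap in any of the lines. The HCC1500 call was lost in 12 of 20 alternatives and the MDA-MB-175 call in 6 of 20, always with the same sign.

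Counted over the 9 genes other than AMD1, MDA-MB-175 had 2 that rose (SAT1, OAZ2) and 2 that fell (SRM, AZIN1), which is 4 of 9 where 25.7% of all 17029 genes tested were called. ZR-75-30 had 2 that rose (SAT1, OAZ1) and 3 that fell (ODC1, SRM, AZIN1), so 5 of 9 against 46.0% of all genes. HCC1500 had 2 that rose (ODC1, SAT1) and 1 that fell (AZIN1), so 3 of 9 against 20.5%. Without replicate 3, 8 of 9 were called in HCC1500, 3 higher and 5 lower, but 58.5% of all genes were then called too. The median log2 changes of the 9 genes were -0.13, 0.00 and 0.09 in the 3 lines, beside -0.02, 0.01 and -0.06 over all genes. The HCC1500 median changed sign to -0.27 without replicate 3, beside -0.12 over all genes. All 10 genes passed the filter on low values in each line.

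Without AMD1, groups that did not overlap were found for 4 of 9 genes of MDA-MB-175 (26.6% of all genes), 4 of ZR-75-30 (42.0%) and 4 of HCC1500 (32.4%). In HCC1500 these were ODC1, SAT1 and SMOX, which were higher at HG, and AZIN1, which was lower. Without replicate 3 there were 8 of 9 (58.1%), all but SRM.

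**Figure D2:**
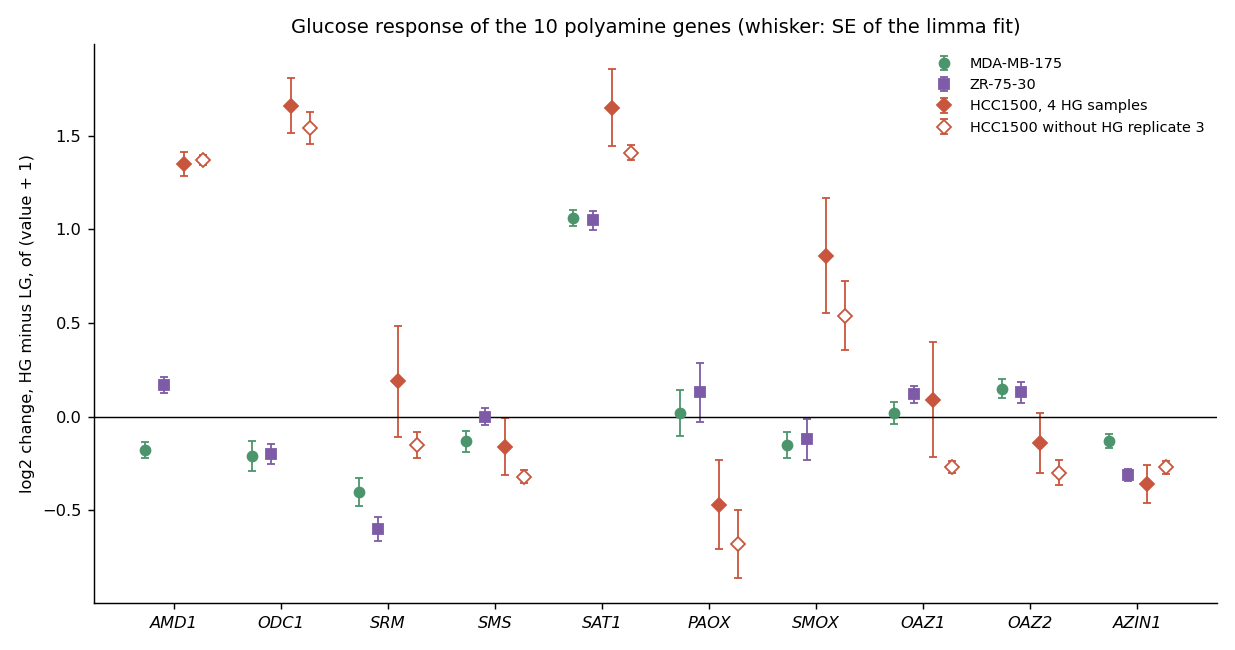
log2 change of (value + 1), HG minus LG, with the SE of the limma fit, for the 10 polyamine genes in 3 lines and in HCC1500 without HG replicate 3 (open diamonds). AMD1 (1.35) and ODC1 (1.66) stand well above 0 in HCC1500 only, SAT1 does so in all 3 lines (1.05 to 1.65), and the open diamonds have shorter error bars.

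The difference between lines in the response was tested directly for the 9 genes. It passed for 3 of 9, ODC1 (limma F test on 24 samples, adjusted p = 1.1e-09), SMOX (adjusted p = 0.011) and SAT1 (adjusted p = 0.0257), where 29.3% of all 18144 genes passed. The ODC1 response in HCC1500 exceeded that in MDA-MB-175 by 1.87 ± 0.142 and that in ZR-75-30 by 1.86 ± 0.142 log2 units (adjusted p = 4.0e-09 and 3.5e-09), or by 1.75 ± 0.107 and 1.74 ± 0.107 without replicate 3. For AMD1, described without a test, the same differences were 1.53 ± 0.063 and 1.18 ± 0.063.

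Set against MDA-MB-175, the HCC1500 response was called for 3 of 9 genes (17.7% of all genes, 6.46% with HCC1500 higher), ODC1, SAT1 and SMOX, and set against ZR-75-30 for 4 of 9 (25.2%, 9.99% higher), the same 3 and SRM, all with the HCC1500 value higher. The SRM difference was 0.79 ± 0.274 (limma, adjusted p = 0.0375), or 0.45 ± 0.104 without replicate 3 (adjusted p = 0.00115). For SAT1 the excess over the other lines was 0.58 ± 0.189 and 0.60 ± 0.189 log2 units (limma, adjusted p = 0.0358 and 0.0235). It shrank to 0.35 ± 0.068 and 0.36 ± 0.068 without replicate 3 and still passed (adjusted p = 2.7e-04 and 1.3e-04). SMOX exceeded MDA-MB-175 by 1.0 ± 0.281 and ZR-75-30 by 0.98 ± 0.281 (adjusted p = 0.0152 and 0.0125), with 0.69 ± 0.158 and 0.67 ± 0.158 without replicate 3. Between ZR-75-30 and MDA-MB-175, 0 of 9 responses were called by limma, and likewise 0 at an unadjusted p under 0.05 and 0 by edgeR or DESeq2, where limma called 11.2% of all genes. Without replicate 3, which is in neither line but enters the shared estimate of the spread, 1 of 9, AZIN1, was called (25.8% of all genes), at -0.18 ± 0.042 (adjusted p = 0.00246). The SAT1 responses of those lines differed by -0.01 ± 0.189.

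SRM, SMS, PAOX, OAZ1, OAZ2 and AZIN1 did not pass the F test (limma, adjusted p = 0.0726, 0.648, 0.13, 0.965, 0.222 and 0.106). Leaving out replicate 3 moved the count to 9 of 9, where 48.6% of all genes passed. Against either line 8 of 9 were then called, 3 higher and 5 lower against MDA-MB-175 and 4 each way against ZR-75-30, where 32.5% of all genes were called against MDA-MB-175 and 40.5% against ZR-75-30. The PAOX response in HCC1500 was then 0.70 ± 0.198 log2 units below that in MDA-MB-175 and the OAZ2 response 0.46 ± 0.085 below (adjusted p = 0.0086 and 1.8e-04).

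At LG, HCC1500 differed from the other lines in most of the 9 genes, as it did in most genes measured. ZR-75-30 differed from MDA-MB-175 in 4 of 9 (63.8% of all genes), with ODC1 and SMS higher by 1.04 and 0.39 and SAT1 and SMOX lower by 1.20 and 2.22 on the log2 scale. HCC1500 was below MDA-MB-175 in 6 of 9: ODC1, SAT1, PAOX, SMOX, OAZ2 and AZIN1. Of all 18144 genes, 72.6% differed between these lines in either direction, and 6296 were lower in HCC1500. HCC1500 was below ZR-75-30 in 7 of 9, all but SRM and OAZ1. Here 73.0% of all genes differed in either direction, and 5269 were lower in HCC1500. The count of 7 was 4 after rescaling each sample to its total (CPM). OAZ1 was at 1832 to 1992 in HCC1500 and 2508 to 2649 in ZR-75-30, without overlap. HCC1500 HG replicate 3 enters the shared estimate of the spread. Without it the 3 counts were 5, 6 and 8 of 9, where 13066, 14415 and 14313 of 18127 genes were called. None of the 9 was higher in HCC1500 than in another line by this test (limma), by edgeR or by DESeq2, while limma called 37.9% of all genes higher than in MDA-MB-175 and 44.0% higher than in ZR-75-30.

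AZIN1 had the lowest adjusted p of these differences. For this gene HCC1500 was at 1129 ± 31.2 at LG, against 3368 ± 129 in MDA-MB-175 and 3223 ± 33.2 in ZR-75-30 (SD, n = 4), which is 1.58 ± 0.062 and 1.51 ± 0.062 (SE) log2 units lower (limma, adjusted p = 3.2e-16 and 6.2e-16). SAT1 was ordered MDA-MB-175, ZR-75-30, HCC1500 at LG, at 1366 ± 57.1, 594 ± 50.6 and 345 ± 12.9. In the deposited values AMD1 and SRM had similar LG means in the 3 lines, at 955 to 1091 for AMD1 and 217 to 235 for SRM. As for AMD1, the SRM order depends on the processing. HCC1500 minus ZR-75-30 was -0.04 log2 units for SRM and ran from -0.35 to 0.31 over the alternatives.

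Levels of different genes were compared per kb of the canonical transcript. OAZ1 was the highest of the 10 in 5 of 6 groups, for instance at 2256 ± 58 per kb in ZR-75-30 LG (SD, n = 4). In MDA-MB-175 HG it was passed by SAT1, at 2722 ± 94.1 against 1723 ± 122 per kb, which did not overlap. PAOX was the lowest in 5 groups, between 9.91 and 21.7 per kb, and SMOX was the lowest in HCC1500 LG at 7.55 ± 1.28 per kb. AMD1 moved from rank 4 at LG in HCC1500 (298 ± 6.33 per kb) to rank 3 at HG (760 ± 19.4 per kb), while it had rank 5 in the 4 groups of the other lines (279 to 319 per kb). ODC1 had rank 8 or 9 in every group by this length, from 33.2 to 119 per kb. By the length of all exons pooled, AMD1 had rank 4 to 7 and ODC1 rank 7 to 9, so the middle places depend on the length used.

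**Figure D3:**
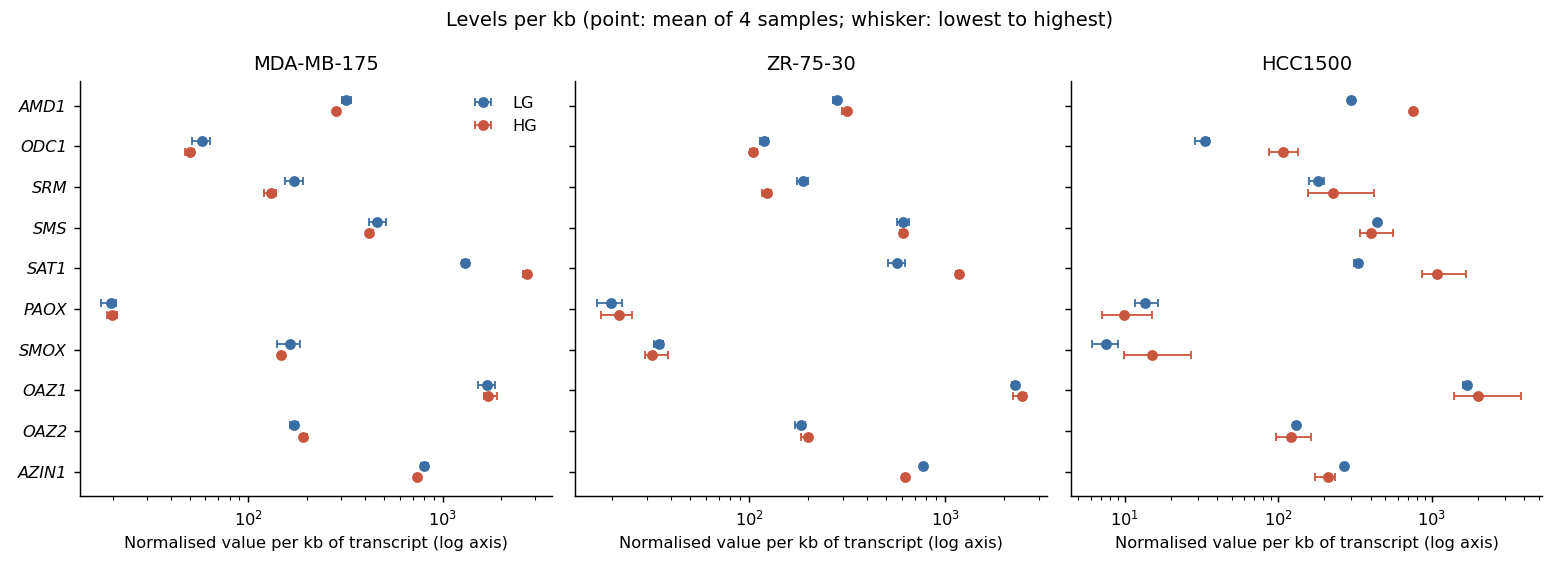
Normalised value per kb of canonical transcript on a log axis for the 10 genes at LG and HG in each line, as the mean of 4 samples with whiskers from the lowest to the highest. SAT1 shifts to the right at HG in all 3 lines, and AMD1 and ODC1 shift in HCC1500 (298 to 760 and 33.2 to 107 per kb). The long HCC1500 HG whiskers of OAZ1 and SRM end at HG replicate 3.

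Ratios within a sample do not depend on the sample factor. The ratio of ODC1 to OAZ1, enzyme to antizyme, was 0.0196 ± 0.0022 per kb at LG in HCC1500 and 0.0609 ± 0.018 at HG (SD, n = 4), 3.10-fold without overlap. Without replicate 3 the fold was 3.54. For MDA-MB-175 and ZR-75-30 the same ratio was 0.84 and 0.80 times its LG value, and the groups overlapped. The ratio of ODC1 to AZIN1 in HCC1500 was 4.24-fold higher at HG, or 3.55-fold without replicate 3.

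The ratio of SAT1 to SMS, breakdown to the last step of synthesis, was higher at HG without overlap in every line. It went from 2.83 ± 0.147 to 6.48 ± 0.178 in MDA-MB-175, from 0.935 ± 0.0553 to 1.93 ± 0.0888 in ZR-75-30 and from 0.744 ± 0.028 to 2.61 ± 0.279 in HCC1500 (SD, n = 4), or to 2.48 ± 0.107 without replicate 3. AMD1 to SRM was 1.72-fold higher at HG in ZR-75-30 without overlap. In HCC1500 that ratio was 2.41-fold higher with overlap and 2.85-fold without replicate 3, which had the ratio of an LG sample. AMD1 to ODC1 overlapped between LG and HG in HCC1500, at 9.03 ± 0.897 and 7.32 ± 1.42, and did not in ZR-75-30, at 2.34 ± 0.0133 and 3.03 ± 0.108.

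**Figure D4:**
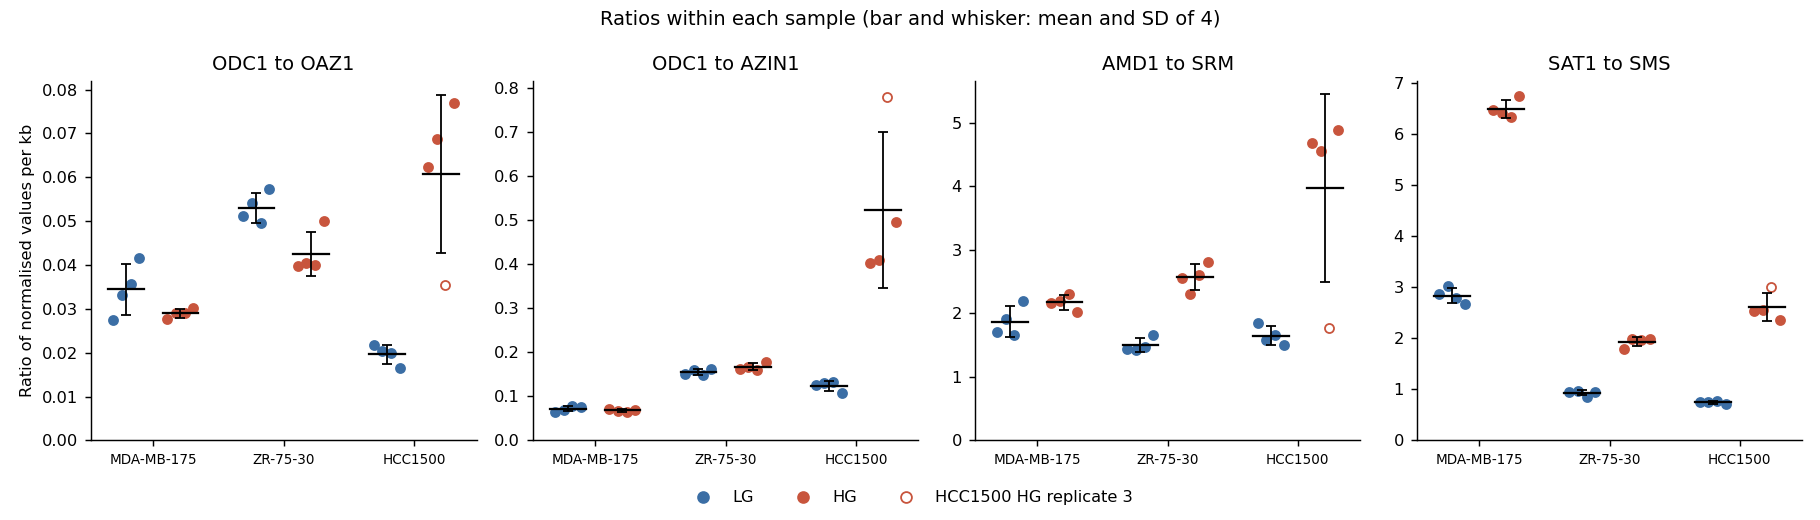
Ratios of per-kb normalised values within each sample, with y axes from 0, 4 points per group and their mean and SD, and HCC1500 HG replicate 3 as an open circle. ODC1 to OAZ1 and ODC1 to AZIN1 are higher at HG in HCC1500 (0.0609 against 0.0196 and 0.523 against 0.123), SAT1 to SMS in all 3 lines, and the open circle falls among the LG samples for AMD1 to SRM.

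The genes whose pattern was most like that of AMD1 were taken from 13310 genes by the correlation with AMD1 after centring each line on its own mean. Over 24 samples these were SLC5A8 (Pearson r = 0.971), PFKP (0.97), TRIM4 (0.956), SLC19A2 (0.949) and LHX9 (0.945), and ODC1 ranked 7th (0.94). Without replicate 3 they were DDX21 (0.971), SLC5A8 (0.968), YTHDF3 (0.967), ISL1 (0.966) and PFKP (0.966), and ODC1 ranked 19th (0.948). The samples share libraries and fall into LG and HG clusters, so the r is a description and carries no p. SLC5A8 averaged 411 at LG and 950 at HG in HCC1500, 87.7 and 69.8 in MDA-MB-175 and 0 in ZR-75-30. The other members reached 0.694 at most (SAT1), and AZIN1 was at -0.667. Without replicate 3 SMOX was at 0.677 and SAT1 at 0.641, OAZ1 moved from 0.071 to -0.654, and PAOX was the lowest at -0.764.

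The other genes of polyamine supply, transport and use were described from a list of 35, of which 34 were found. In MDA-MB-175, 15 of 34 were called, 5 higher and 10 lower. ZR-75-30 had 15 of 32 tested, 7 higher and 8 lower, and HCC1500 had 9 of 31, 4 higher and 5 lower, or 25 of 31 (12 higher and 13 lower) without replicate 3. Read against the 25.7%, 46.0%, 20.5% and 58.5% of all genes, these shares were higher in MDA-MB-175 and in HCC1500 and close to all genes in ZR-75-30.

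Transport had 4 of 5 tested genes called in MDA-MB-175 (25.7% of all genes) and 4 of 5 in ZR-75-30 (46.0%). In HCC1500 it had 3 of 4 (20.5%), or 4 of 4 without replicate 3 (58.5%). SLC3A2, the heavy chain of amino acid transporters that has also been tied to polyamine export, rose in all 3 lines. Its means went from 958 ± 78 to 1376 ± 44.8, from 969 ± 43.3 to 1927 ± 132 and from 1302 ± 34.5 to 4032 ± 1803 (SD, n = 4), or to 3131 ± 18.4 without replicate 3. SLC3A2 changed by 0.52 ± 0.054, 0.99 ± 0.048 and 1.54 ± 0.239 log2 units (limma, adjusted p = 2.3e-06, 1.2e-11 and 0.00272), and SLC3A2 was the largest change of the list in HCC1500. Without replicate 3 it was 1.27 ± 0.028 there, and MYCN, at -1.62, was then larger.

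ATP13A2, the lysosomal polyamine exporter, fell in each line, by 0.35 ± 0.071, 0.52 ± 0.067 and 0.82 ± 0.124 on the log2 scale (limma, adjusted p = 0.00171, 3.3e-06 and 0.00249). ATP13A4, of the same family of pumps, fell by 0.88 ± 0.123, 1.99 ± 0.148 and 0.90 ± 0.225 (adjusted p = 5.5e-05, 3.4e-09 and 0.0226), the largest change of the list in the first 2 lines. Without replicate 3, ATP13A2 fell by 0.93 and ATP13A4 by 0.67 in HCC1500. Its relative ATP13A3 rose in MDA-MB-175 and ZR-75-30, by 0.40 and 0.28 (adjusted p = 1.9e-05 and 2.8e-05). In HCC1500 ATP13A3 changed by 0.47 ± 0.305 (adjusted p = 0.321), and by 0.83 ± 0.027 (adjusted p = 2.4e-14) without replicate 3, where it was at 1020 against 2734 to 2782 in the other HG samples.

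Ornithine and arginine supply had 5 of 8 called in MDA-MB-175 (25.7% of all genes), 2 of 6 in ZR-75-30 (46.0%) and 3 of 8 in HCC1500 (20.5%). Without replicate 3, HCC1500 had 7 of 8 called (58.5%), 4 higher and 3 lower. SLC25A15, the mitochondrial ornithine carrier, fell in each line, by 0.41 ± 0.098, 0.20 ± 0.075 and 0.55 ± 0.116 (limma, adjusted p = 0.00522, 0.0379 and 0.0116). Without replicate 3 it fell by 0.47 in HCC1500. Among the 5 genes of methionine and S-adenosylmethionine, the substrate of AMD1, 1 was called per line. These were AHCY, lower in MDA-MB-175 (25.7% of all genes), and MAT2A, lower in ZR-75-30 (46.0%) and HCC1500 (20.5%). In HCC1500 without replicate 3, 5 of 5 were called, 1 higher and 4 lower, where 58.5% of all genes were called. MAT2A went from 1162 ± 33.9 to 924 ± 24.3 in HCC1500, a log2 change of -0.33 ± 0.067 (adjusted p = 0.00911), the same without replicate 3 and opposite in sign to that of AMD1. AHCY, MAT2A, ATP13A3, MTAP, MRI1, EIF5A2, DOHH and MYC were named after their values were seen.

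Salvage of methylthioadenosine, the by-product of each aminopropyl transfer, had 1 of 5 called in MDA-MB-175 (25.7% of all genes) and 2 of 5 in ZR-75-30 (46.0%), all lower. In HCC1500 the nearest to a call was MRI1, at -0.44 (limma, adjusted p = 0.0793). Without replicate 3, 1 of 4 was called there (58.5% of all genes). MTAP, the first enzyme of salvage, had 0 reads in all 8 HCC1500 libraries, where 3 reads would be a value of at most 2.23. It was at 178 to 284 in the 16 libraries of the other lines. EIF5A2, a carrier of the spermidine-derived residue hypusine, also had 0 reads in those 8. In the hypusine group 2 of 5 were called in MDA-MB-175, both lower, and 3 of 5 in ZR-75-30, beside the same shares of all genes. In HCC1500 the nearest was DOHH, which completes hypusine, at 0.79 (limma, adjusted p = 0.105), and 3 of 4 were called without replicate 3 (58.5% of all genes).

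The MYC genes were included for the E-boxes of ODC1 and SRM. A link of MYC with the level of either gene was not tested. At LG, MYC averaged 692 ± 33.2 in ZR-75-30, 257 ± 7.81 in HCC1500 and 20.3 ± 2.17 in MDA-MB-175 (SD, n = 4), the same order as ODC1 for the highest line only. It rose in HCC1500 to 462 ± 126, a log2 change of 0.81 ± 0.163 (limma, adjusted p = 0.00911), or 0.64 ± 0.049 without replicate 3 (adjusted p = 3.0e-09). In the other lines MYC was not called, at 0.42 ± 0.166 and 0.03 ± 0.043 (adjusted p = 0.0758 and 0.626). MYCN fell in all 3, by 0.68, 1.27 and 1.42 (limma, adjusted p = 1.4e-04, 0.00301 and 0.0263), or 1.62 in HCC1500 without replicate 3, from means of at most 83.8.

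**Figure D5:**
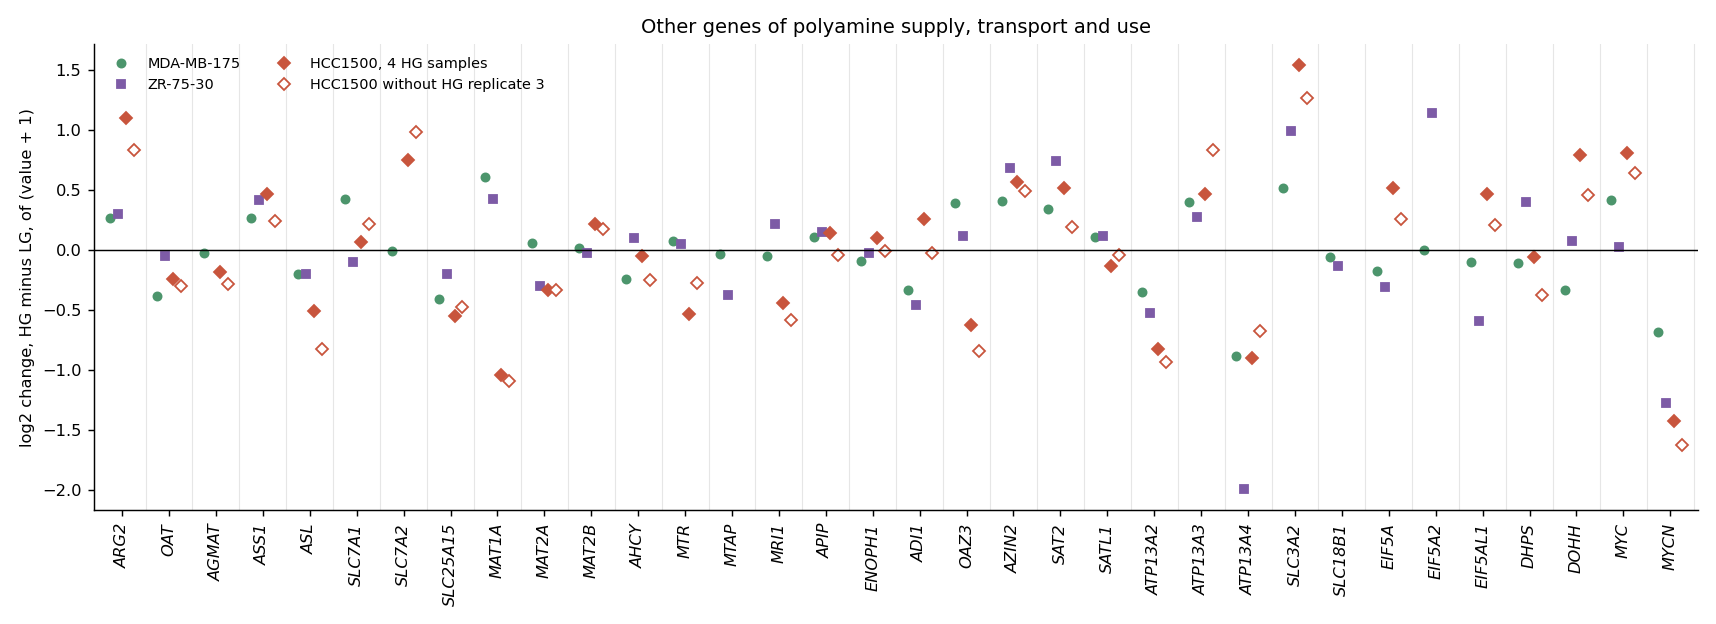
log2 change of (value + 1), HG minus LG, for 34 other genes of polyamine supply, salvage, transport and use in 3 lines and in HCC1500 without HG replicate 3 (open diamonds); a missing point is a gene not tested. SLC3A2 lies above 0 in all 3 lines (0.52 to 1.54) and ATP13A2 and ATP13A4 lie below 0 in all 3.

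Markers of cell division moved with the condition in each line. Of 11 proliferation genes, among them MKI67 and RRM2, 9 fell in HCC1500, or 11 without replicate 3, and 11 fell in each other line. Over all genes, 2338 of 17029 fell in MDA-MB-175 and 3590 of 15834 in ZR-75-30. In HCC1500 2129 of 16361 fell, or 6114 of 16235 without replicate 3. The summed value of the 11 was 8303 to 8670 at LG and 5913 to 6110 at HG in MDA-MB-175. It was 6004 to 6146 and 2985 to 3117 in ZR-75-30, and 3969 to 4035 and 1488 to 2341 in HCC1500. ODC1 rose and AMD1 was higher in HCC1500 at HG, the group with the lowest summed value. What part cell division had in the values of SRM, AZIN1, SAT1, ODC1 or AMD1 was not tested.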

How the data were processed

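RNA was isolated with RNeasy Plus kits and sequenced on an Illumina HiSeq. The deposited table holds 1 signal value per gene and sample: whole reads that the authors divided by 1 unstated factor per sample, called normalised values here. The study's methods name Tophat and hg19 for alignment, while the submitters' processing notes list hg38 and edgeR. Reads were recovered from the steps between values, and 100% of values came out whole within 0.05 reads. Of the identifiers in the table, 96.3% matched GENCODE v44 on GRCh37, from which the coordinates and transcript lengths were taken. Promoter sequences came from RefSeq (GRCh38.p14).

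Tests used limma 3.58.1 in R 4.3.3 (moderated with a mean trend) on log2(value + 1), for genes that reached 0.5 in 4 or more fitted samples, with Benjamini-Hochberg adjustment over all genes and a threshold of 0.05, two-sided. Each line was fitted on its own 8 samples, and differences between lines on all 24 samples. edgeR 4.0.16 and DESeq2 1.42.0 were run on recovered reads as alternatives, next to other scalings (median of ratios, CPM, TMM), pseudocounts, filters, sample weights, a replicate block and leaving out each library. The scripts were tested on simulated data. These held no library like HCC1500 HG replicate 3, so that test does not cover the HCC1500 fits that include it. No 2 replicates differed by less than sampling noise, with a chi-square per degree of freedom of at least 1.82.

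The members and the gene lists were chosen with earlier results of these data known, so no count over them is independent evidence. The proliferation list is the set of cell cycle genes that the study's methods name for a proliferation score, which was defined in earlier work. Named were all 10 members, pathway genes called in all 3 lines with 1 sign or changed most in a line, and the 5 genes most like AMD1. AZIN2 is listed under an older symbol, and ARG1 was not analysed here. Replicate numbers pair no samples by the labels. Over 12 pairs of LG and HG samples with the same number, deviations from the group means correlated between -0.05 and 0.16, and 1 pair was over 0.1.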

Additional observations from a re-analysis of the deposited data

Results flagged for a closer look

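In 9 of 60 sets of 4 samples (10 genes in 6 groups), 1 sample lay far from the other 3, where chance gives about 1 in 20. Of these 9, 5 were HCC1500 HG replicate 3, which was the highest for SRM (527, next 217), SMS (948, next 629), SAT1 (1756, next 927), SMOX (58.7, next 26.5) and OAZ1 (4386, next 1612). ZR-75-30 HG replicate 4 stood apart for 3 genes, high for ODC1 (271, next 253) and low for OAZ1 (2525, next 2895) and OAZ2 (354, next 396). SMOX in ZR-75-30 HG replicate 2 was at 83.7, above the next value of 64.6.

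The glucose response differed between the 3 lines by limma's F test for ODC1 (adjusted p = 1.1e-09), SMOX (adjusted p = 0.011) and SAT1 (adjusted p = 0.0257). For SAT1 all 3 lines rose and the difference was one of size.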

How the results depend on the processing

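The calls of ODC1 in HCC1500, of SAT1 in each line and of SRM and AZIN1 in ZR-75-30 held in all 20 alternatives. The cause of the changes below was not tested, except that dropping a library leaves fewer samples. The AMD1 log2 change in HCC1500 (1.35) was 1.41 by median of ratios, 1.28 by CPM, 1.40 by TMM, 1.39 by edgeR and 1.41 by DESeq2, and 1.34 to 1.37 with any 1 library left out. AMD1 at low glucose in HCC1500 minus ZR-75-30 (0.09) reversed to -0.05 by median of ratios and DESeq2 and to -0.10 by TMM and edgeR, and was 0.45 by CPM, where ZR-75-30 minus MDA-MB-175 went from -0.19 to -0.43. HCC1500 minus MDA-MB-175 (-0.10) reversed to 0.02 by CPM. OAZ1 log2 change in HCC1500 (0.09) reversed to -0.26 with sample weights and -0.27 without HG replicate 3 (up to 0.21 with another library left out), and its response in HCC1500 minus MDA-MB-175 (0.07) to -0.25 and -0.29 (up to 0.19).

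Of the 9 members, the count called in HCC1500 (3) was 8 with sample weights and 5 in a fit on all 24 samples, and 2 to 8 with 1 library left out (2 to 3 for libraries other than HG replicate 3). In MDA-MB-175 (4) the fit on all 24 samples gave 1 and leaving out libraries 2 to 5, and in ZR-75-30 (5) these gave 3 and 4 to 6. The difference between lines (3) was called for 6 by CPM and 9 with sample weights, and for 2 to 9 with 1 library left out, where SAT1 was lost without HCC1500 LG replicate 4 (adjusted p = 0.0571). At low glucose, HCC1500 minus ZR-75-30 (7) gave 4 by CPM and 8 without HCC1500 HG replicate 3.

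Over all genes, HCC1500 calls (3350) were 9436 with sample weights, 1964 with a replicate block, 5842 in the fit on all 24 samples, 9504 without HG replicate 3 and 2015 to 2104 without an LG library. MDA-MB-175 calls (4368) were 2011 in the fit on all 24 samples, and calls between lines (5316) were 9148 with sample weights and 8809 without HG replicate 3. With no library left out, the alternatives gave 4653 to 9148 calls between lines. They gave 5142 to 7645 for ZR-75-30 (7290), and 10661 to 14614 for HCC1500 minus ZR-75-30 at low glucose (13245). Of HCC1500 calls 36.4% were higher, against 49.2% by median of ratios, 48.8% by TMM, 47.8% by edgeR and 52.4% by DESeq2. For the other pathway genes, the 9 called in HCC1500 were 17 by DESeq2, 24 with sample weights, 4 with the replicate block, 5 without an LG library, 25 without HG replicate 3 and 19 in the fit on all 24 samples, and the 15 in MDA-MB-175 were 7 there. The replicate block left 2 members called in HCC1500 and lost AZIN1 (adjusted p = 0.077). Of 12 LG samples 4 correlated best with their own number. This cannot tell whether LG and HG samples with the same number were handled together, and the labels do not say. PAOX and SMOX rest on few reads in HCC1500, 22 to 74 and 35 to 79 per sample.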
